A study of Homo sapiens with 6 samples.

Results

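Most genes that build the spindle, hold chromosomes on it and take the cell out of mitosis were lower in HepG2 cells after knockdown of KIF11. The genes described are 48 mitotic kinases, cyclins, kinetochore and checkpoint proteins, anaphase enzymes and cytokinesis factors, chosen by name with the kinesin motors left out. The choice was made with earlier results of these data known. All 48 were among the 20030 genes of the count table, and 48 of 48 passed the filter on low counts, the smallest member count being 242 for CENPM. HepG2 is an established human hepatoma cell line. The study asked how loss of the motor KIF11 changes its gene expression, by sequencing of polyA RNA from 3 sh-ctrl and 3 sh-KIF11 libraries. Cells of both groups had received a lentiviral shRNA in the pLKO.1 vector and puromycin selection according to the study's methods, a control shRNA in sh-ctrl and an shRNA against KIF11 in sh-KIF11. The sh-KIF11 construct rests on 1 hairpin sequence in 1 cell line. Nothing in the labels says that the 3 libraries of a group came from separate cultures, so the p-values given measure only the spread between these libraries.

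In mitosis, cyclin B with CDK1 drives entry, and PLK1 and the Aurora kinases organise the poles and the spindle. Kinetochores bind the microtubules, and those without attachment feed the spindle checkpoint, which holds back CDC20 and the anaphase-promoting complex (APC/C). Once all are attached, securin and cyclin B are destroyed, separase opens the cohesin rings, and the cell divides. KIF11 is the kinesin that pushes the spindle poles apart. Many of these genes are transcribed late in the cell cycle through a short promoter element, the cell cycle genes homology region (CHR). In bulk RNA, fewer cells in mitosis and less RNA per cell cannot be told apart.

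The hairpin target, as listed among the study's cloning oligos, is shown because it is what separates the groups. It matched 1 of 206694 annotated transcripts exactly, which belongs to KIF11, and 0 of the mitotic genes described here.
sh-KIF11 target: gcgcccattcaatagtagaat
KIF11 itself was at 111, 116 and 121 CPM (counts scaled to depth by TMM factors) in sh-ctrl and at 72.2, 71.4 and 62.9 CPM in sh-KIF11. The groups did not overlap, and the log2 fold change was -0.75 (SE 0.057, edgeR quasi-likelihood test with Benjamini-Hochberg adjustment, adjusted p = 4.22e-15). The knockdown libraries held 59.4% of the control level of KIF11 mRNA. Total counts were 18167773 to 19583282 a library. TMM factors were 0.922 to 0.926 in sh-ctrl and 1.08 to 1.09 in sh-KIF11. Of 14 hepatocyte and HepG2 markers none was at 0, and their summed level was 37557 to 39383 CPM in sh-ctrl and 16187 to 17583 CPM in sh-KIF11. The 9 fibroblast markers, 3 of them at 0 in all libraries, summed to 2.55 to 3.93 CPM in sh-ctrl and 1.45 to 2.19 CPM in sh-KIF11. The 7 endothelial markers, 1 of them at 0, summed to 3.16 to 3.61 and 4.73 to 4.98 CPM. The 8 leukocyte markers summed to 2488 to 2985 CPM in sh-ctrl and 509 to 640 CPM in sh-KIF11, nearly all of it LYZ, with CSF1R at 0 in the 6 libraries and PTPRC at no more than 1 count. The part of the hepatocyte marker shift in the mitotic gene levels was not tested.

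Of the 48 mitotic genes, 39 fell, 4 rose and 5 did not pass the test at an adjusted p of 0.05. Across all 12369 genes tested, 34.7% were lower, 34.4% were higher and 69.1% were called in either direction. The median log2 fold change was -0.52 over the mitotic genes and 0.00 over all genes tested. A fall of at least 0.5 on the log2 scale was seen for 25 of the 48, against 13.9% of all genes tested. The 3 sh-KIF11 libraries lay below the 3 sh-ctrl libraries without overlap for 39 mitotic genes, against 35.8% of all genes tested, and above them for 4. Groups separated in either direction for 71.2% of all genes tested. A single value compared over 3 against 3 libraries by an exact permutation test cannot reach a p below 0.1, so single calls rest on the edgeR fit across all genes. The lowest was BIRC5, at 50.2% of its control level, and the highest was ASPM, at 141%. The 48 genes together summed to 6309, 6465 and 6404 CPM in sh-ctrl and to 4712, 4842 and 4634 CPM in sh-KIF11. As a share of the raw library totals, without TMM factors, they made up 0.584% to 0.596% in sh-ctrl and 0.503% to 0.525% in sh-KIF11. The gap between groups was thus smaller on raw totals than on the TMM scale.

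**Figure D1:**
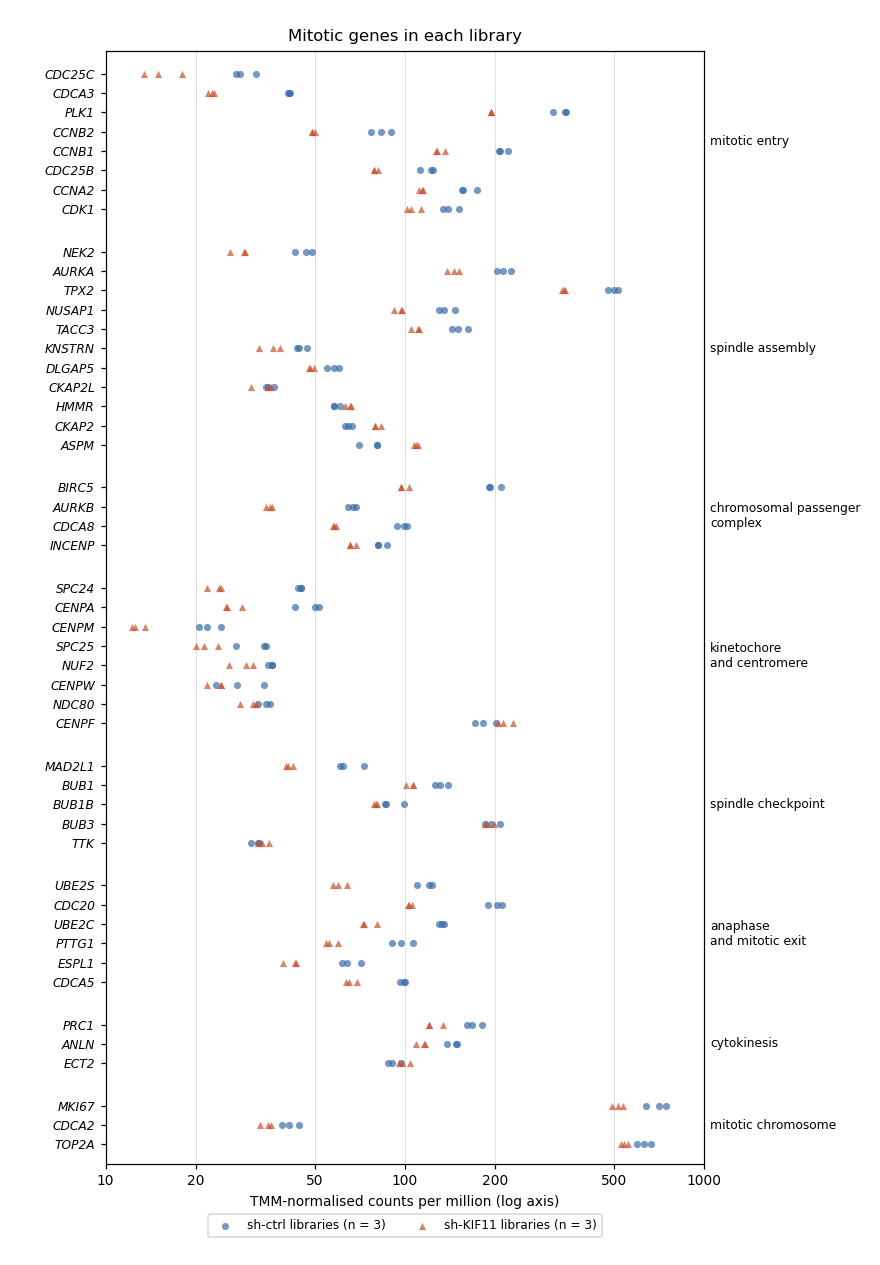
TMM-normalised CPM (log axis) of the 48 mitotic genes in each of the 3 sh-ctrl (circles) and 3 sh-KIF11 (triangles) libraries, grouped by role. The triangles lie left of the circles for 39 genes and right of them for 4.

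How many mitotic genes passed depended on the scaling. With library totals in place of TMM factors the median of all genes tested moved to 0.24 and that of the mitotic genes to -0.29, so that the distance between them stayed at -0.53, and 30 mitotic genes were lower and 8 higher, against 19.2% and 53.5% of all genes. All 30 were lower under each of the 17 alternative settings that gave every gene a value. Limma on the deposited FPKM values, fragments per kilobase of transcript scaled to library depth, gave 33 lower and 7 higher, against 21.0% and 45.6% of all genes.

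Between genes, levels can be compared only per length, on the FPKM scale. The highest sh-ctrl level was that of PLK1, 115 ± 5.83 FPKM (SD, n = 3), followed by CCNB1 at 93.7 ± 1.88, CDC20 at 86.9 ± 4.88 and TPX2 at 86.4 ± 3.37. CDC20 and TPX2 did not differ beyond their spread. The lowest were CENPM at 1.85 ± 0.386, CDCA2 at 4.80 ± 0.277 and CKAP2L at 5.10 ± 0.0906 FPKM. This order is that of the deposited FPKM values, and counts set against transcript length do not all follow it. CENPM had 22.2 CPM in sh-ctrl on a longest coding transcript of 1002 bases. CDCA2 had 41.5 CPM on 3731 bases and CKAP2L 35.3 CPM on 4533 bases. UBE2C, at 31.6 FPKM, had 133 CPM on 914 bases, against 334 CPM on 2227 bases for PLK1. The reason was not tested. The control level and the log2 fold change had a Spearman correlation of -0.32 across the 48 genes, which come from the same 6 libraries and are not independent replicates.

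All 8 genes of mitotic entry fell, with a median log2 fold change of -0.73. CDC25C, a phosphatase that activates CDK1, was at 28.0, 27.3 and 31.8 CPM in sh-ctrl and at 13.5, 18.1 and 15.0 CPM in sh-KIF11. Every knockdown library was below every control library, and the log2 fold change was -0.90 (SE 0.092, edgeR adjusted p = 2.00e-11). CDK1, the kinase whose activity defines mitosis, moved least of the 8 in the TMM fit, though not with GC and length offsets (CDK1 -0.57, CDC25B -0.49), from 134, 139 and 151 CPM to 105, 114 and 102 CPM. Its groups were also apart, with a log2 fold change of -0.41 (SE 0.055, edgeR adjusted p = 1.83e-08). CDCA3, an adaptor in the turnover of the CDK1 inhibitor WEE1, fell to 55.1% of control, and PLK1, the Polo kinase, to 58.2%. PLK1 was at 345, 344 and 313 CPM in sh-ctrl against 194, 195 and 195 CPM in sh-KIF11, with no overlap. The mitotic cyclins CCNB2, CCNB1 and CCNA2 were at 59.3%, 61.6% and 69.9% of control, and the phosphatase CDC25B at 66.6%. The 8 calls held under each of the 17 settings.

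The chromosomal passenger complex, in which the kinase AURKB works with its partners to correct faulty attachments, had all 4 members lower. BIRC5 (survivin), the subunit that docks the complex on the centromere, was at 210, 192 and 192 CPM in sh-ctrl and at 97.2, 97.3 and 103 CPM in sh-KIF11. The log2 fold change was -0.996 (SE 0.052, edgeR adjusted p = 2.31e-20), the largest fall among the 48. INCENP, the scaffold that activates AURKB, was at 87.4, 81.1 and 81.1 CPM against 65.7, 68.6 and 65.7 CPM. Its change of -0.32 (SE 0.057, edgeR adjusted p = 4.21e-06) was the smallest in the complex, and its call was lost on library totals at -0.09 and on FPKM. AURKB fell to 52.8% and CDCA8 (borealin) to 59.0% of control. The log2 fold changes within this complex thus ran -0.996 to -0.32.

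Among the genes of anaphase and mitotic exit, all 6 fell, with a median of -0.80. UBE2S, which extends the ubiquitin chains started by the APC/C, was at 124, 120 and 110 CPM in sh-ctrl and at 64.0, 57.6 and 60.0 CPM in sh-KIF11. The groups were far apart, with a log2 fold change of -0.96 (SE 0.057, edgeR adjusted p = 1.69e-18). CDC20, the activator of the APC/C at the end of metaphase, was at 211, 204 and 190 CPM against 102, 106 and 103 CPM, a log2 fold change of -0.96 (SE 0.052, edgeR adjusted p = 6.17e-20). UBE2C, the enzyme that starts those chains, fell to 56.8% of control, and PTTG1 (securin), the inhibitor of separase, to 57.8%. ESPL1, separase itself, fell to 63.4%. CDCA5 (sororin), which protects cohesin until anaphase, fell least, from 100, 99.6 and 96.3 CPM to 65.1, 69.2 and 63.4 CPM. Its log2 fold change was -0.58 (SE 0.056, edgeR adjusted p = 2.93e-12). The 6 calls held under each of the 17 settings.

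Kinetochore and centromere genes were split in the TMM fit, with 6 lower, 1 higher and 1 that did not pass the test. With the GC and length offsets described further on, all 8 were lower, with a median of -0.43. The NDC80 complex, which grips the microtubule end, has 4 subunits, whose log2 fold changes ran from -0.93 to -0.16. SPC24 was at 44.0, 45.0 and 44.9 CPM in sh-ctrl and at 24.2, 24.0 and 21.9 CPM in sh-KIF11, with a log2 fold change of -0.93 (SE 0.075, edgeR adjusted p = 1.75e-14). Its partner SPC25 fell to 68.3% of control and NUF2 to 81.2%, the NUF2 call being lost on library totals and on FPKM. NDC80 was at 32.2, 34.3 and 35.4 CPM against 31.1, 31.8 and 28.1 CPM. Its groups did not overlap, but the log2 fold change of -0.16 (SE 0.076, edgeR adjusted p = 0.0557) did not pass the test, was 0.07 on library totals and passed as lower without filtering and without sh-ctrl replicate 1. CENPA, the histone H3 variant that marks the centromere, was at 43.1, 50.1 and 51.5 CPM against 28.5, 25.3 and 25.5 CPM and fell to 54.7% of control. CENPM, of the inner kinetochore, was at 57.5%. CENPW, a histone-fold protein of that layer, was at 23.4, 27.5 and 33.7 CPM against 24.4, 24.3 and 21.9 CPM. Here sh-ctrl replicate 1 lay within the knockdown range. The log2 fold change of -0.26 (SE 0.092, edgeR adjusted p = 0.0115) was -0.12 and not called without sh-ctrl replicate 3, -0.21 and not called without sh-KIF11 replicate 3, -0.18 and not called with upper-quartile factors, and -0.03 and not called on library totals.

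CENPF, a large protein of the outer kinetochore and nuclear matrix, was the only kinetochore gene of the 8 that passed as higher. It was at 182, 201 and 172 CPM in sh-ctrl and at 213, 230 and 206 CPM in sh-KIF11. The knockdown libraries lay above the controls, the closest values being 201 and 206 CPM. The log2 fold change was 0.22 (SE 0.054, edgeR adjusted p = 0.000385). It became -0.12 (edgeR adjusted p = 0.0238) once the trend of all genes with transcript GC content and length, given further on, was taken out.

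Spindle assembly genes ranged most widely in the TMM fit, from NEK2 to ASPM, with 7 lower, 3 higher and 1 not called. With GC and length offsets 9 were lower, 0 higher and 2 not called. NEK2, a kinase that separates the centrosomes, was at 42.9, 46.8 and 49.1 CPM in sh-ctrl and at 29.3, 29.0 and 26.0 CPM in sh-KIF11. The log2 fold change was -0.72 (SE 0.076, edgeR adjusted p = 4.24e-11). AURKA, the kinase of the spindle poles, fell to 68.0% of control, and TPX2, which activates AURKA on microtubules, to 68.5%. AURKA and TPX2 stood side by side at -0.56 (SE 0.052) and -0.55 (SE 0.048) on the log2 scale. The microtubule-associated NUSAP1 and TACC3 fell to 69.4% and 71.6%. KNSTRN, which supports chromosome alignment, was at 79.3% and DLGAP5, a spindle stabiliser, at 83.8%. The call for KNSTRN was lost on library totals, and that for DLGAP5 on library totals and on FPKM.

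ASPM, which focuses the spindle poles, had the largest rise of the 48 in the TMM fit. It was at 80.7, 80.7 and 70.0 CPM in sh-ctrl and at 109, 107 and 111 CPM in sh-KIF11. No library of either group came near the other, and the log2 fold change was 0.50 (SE 0.056, edgeR adjusted p = 2.95e-10). CKAP2, another spindle pole protein, was at 63.2, 66.4 and 64.4 CPM against 79.3, 83.4 and 79.8 CPM. It rose by 0.32 (SE 0.056, edgeR adjusted p = 3.35e-06). Once the trend with transcript GC content and length was taken out, ASPM was at 0.06 and CKAP2 at 0.02, and neither was called. HMMR, which links microtubules at the poles, was at 58.1, 60.6 and 57.9 CPM against 65.3, 65.8 and 63.3 CPM. The change of 0.14 (SE 0.060, edgeR adjusted p = 0.0375) did not pass without sh-ctrl replicate 1 (0.13), without sh-KIF11 replicate 1 (0.13), 2 (0.13) or 3 (0.15), or without the filter on low counts. CKAP2L, a paralogue of CKAP2, was at 34.9, 34.5 and 36.5 CPM against 35.0, 35.8 and 30.7 CPM. The groups overlapped, with a log2 fold change of -0.06 (SE 0.076, edgeR adjusted p = 0.499) that was 0.17 and called higher on library totals.

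The spindle checkpoint had a median of -0.18, with 3 genes lower and 2 not called, and a median of -0.33 with 4 lower once the trend with GC content and length was taken out. MAD2L1, which binds CDC20 in the inhibitory complex, was at 60.8, 61.9 and 73.3 CPM in sh-ctrl and at 42.4, 40.6 and 40.1 CPM in sh-KIF11. It fell by 0.67 on the log2 scale (SE 0.069, edgeR adjusted p = 2.68e-11), while its partners BUB1B and BUB3 had values nearer 0. BUB1B (BUBR1) was at 85.7, 86.7 and 99.3 CPM against 80.6, 78.7 and 80.4 CPM. Its groups did not overlap, but the change of -0.18 (SE 0.058, edgeR adjusted p = 0.00574) was 0.05 on library totals, -0.05 on FPKM and -0.10 with upper-quartile factors, none of them called. BUB3, which carries BUB1 and BUB1B to the kinetochore, was at 186, 194 and 207 CPM against 185, 199 and 189 CPM. These values overlapped, with a log2 fold change of -0.04 (SE 0.051, edgeR adjusted p = 0.549). BUB3 was called higher at 0.20 on library totals and at 0.15 on FPKM. The kinase BUB1 fell to 79.0% of control, a call that was lost on library totals. TTK (MPS1), the kinase that starts checkpoint signalling, was at 32.4, 30.5 and 32.5 CPM against 32.4, 33.2 and 35.1 CPM. The ranges touched, and the log2 fold change was 0.08 (SE 0.074, edgeR adjusted p = 0.354). TTK was called higher at 0.31 on library totals and at 0.16 on FPKM.

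Of the 3 cytokinesis genes, PRC1, which bundles the midzone microtubules, fell most in the TMM fit. It was at 162, 167 and 181 CPM in sh-ctrl and at 120, 134 and 121 CPM in sh-KIF11. The change was -0.44 on the log2 scale (SE 0.054, edgeR adjusted p = 1.52e-09). The contractile ring scaffold ANLN fell to 78.4% of control. With GC and length offsets the order turned, with ANLN at -0.61 and PRC1 at -0.49. ECT2, the exchange factor that activates RHOA at the cell equator, was at 90.7, 87.7 and 97.1 CPM against 104, 98.1 and 95.6 CPM. The lowest knockdown library lay inside the control range. Its log2 fold change of 0.11 (SE 0.055, edgeR adjusted p = 0.0654) did not pass. It passed as higher at 0.34 on library totals, at 0.23 on FPKM and at 0.19 with upper-quartile factors. It also passed at 0.15 without sh-ctrl replicate 3 and at 0.14 with at least 10 counts in every library.

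The 3 genes of the mitotic chromosome fell, with a median of -0.27 that became -0.53 once the trend with GC content and length was taken out. MKI67, the proliferation marker that coats mitotic chromosomes, was at 706, 748 and 639 CPM in sh-ctrl and at 516, 537 and 493 CPM in sh-KIF11. The fall of 0.44 on the log2 scale (SE 0.052, edgeR adjusted p = 8.68e-10) kept the groups apart. TOP2A, the topoisomerase that untangles sister chromatids, was at 598, 631 and 664 CPM against 539, 558 and 527 CPM. The groups were apart by less, at -0.22 (SE 0.049, edgeR adjusted p = 0.00011), and the value was 0.01 on library totals and -0.10 on FPKM, neither of them called. CDCA2, which targets a phosphatase to chromatin at exit, was at 83.0% of control, a call lost on library totals and on FPKM.

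The change of a mitotic gene went with the base composition and length of its transcript. Across the 48 genes the log2 fold change had a Spearman correlation of -0.70 with GC content and of 0.56 with length, where each gene takes its longest coding transcript in the annotation. The same correlations over the 12197 tested genes with a matched transcript were -0.31 and 0.29. Both are descriptions over genes of the same 6 libraries. In 5 bins of equal gene number by GC content, the median of all tested genes went from 0.26 in the lowest bin to -0.20 in the highest. The 4 genes that rose, HMMR (36.7% GC), CKAP2 (36.8%), ASPM (37.1%) and CENPF (40.8%), were all in the lowest bin, with 12 other mitotic genes of which 8 fell. ASPM and CENPF also had some of the longest transcripts, 10887 and 10307 bases. CDC20 at 57.9% GC and UBE2S at 55.7% were in the fourth bin, where all 9 mitotic genes fell.

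**Figure D2:**
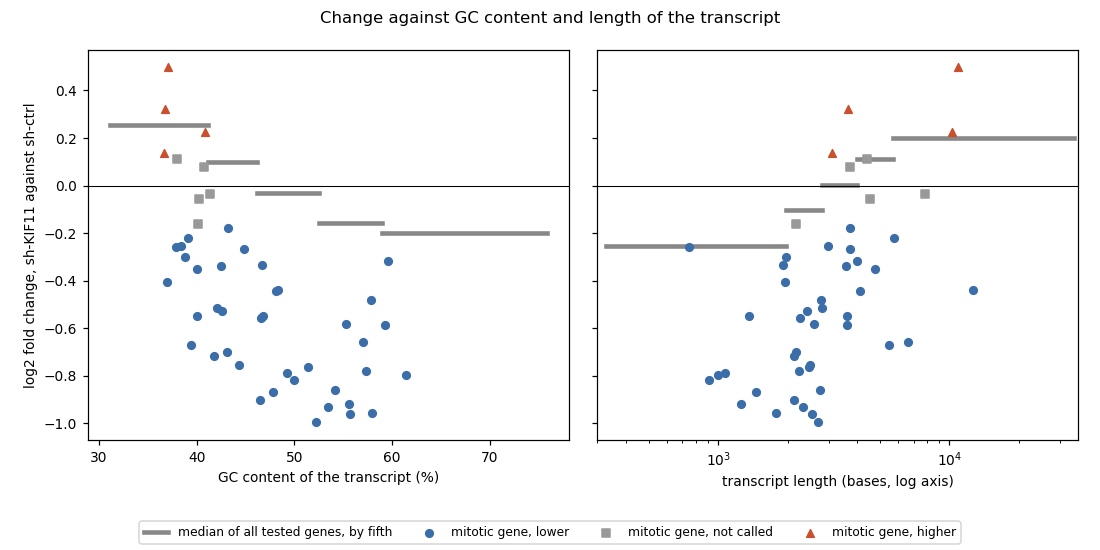
Log2 fold change of the 48 mitotic genes against GC content (left, percent) and length (right, bases, log axis) of the transcript, with the median of all tested genes in 5 bins as grey bars. The 4 genes that rose lie below 41.2% GC, where the grey bar stands at 0.26.

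A second edgeR fit took out the all-gene trend of each library with GC content and length by a loess curve, a setting chosen after the data had been seen. Over all tested genes the Spearman correlations of the log2 fold change were then 0.015 with GC content and 0.009 with length. Across the 48 mitotic genes they were still -0.38 and 0.27, so part of the trend among these genes remained. In it 45 mitotic genes were lower, 0 higher and 3 not called, against 36.4% lower and 30.3% higher among all genes, and 0 mitotic genes were higher at an unadjusted p under 0.05 in this edgeR fit. Of those that had risen, HMMR became -0.12 (edgeR adjusted p = 0.0401) and CENPF -0.12, both called lower, while ASPM at 0.06 (SE 0.051, edgeR adjusted p = 0.341) and CKAP2 at 0.02 (SE 0.047, edgeR adjusted p = 0.704) were no longer called. BUB3 and CKAP2L at -0.31, NDC80 at -0.28 and ECT2 at -0.19 became lower, and TTK at -0.13 did not pass (edgeR adjusted p = 0.072). The genes with the lowest values were then MAD2L1 at -0.97, BIRC5 at -0.89 and CDC25C at -0.86. TOP2A moved from -0.22 to -0.53 and MKI67 from -0.44 to -0.63, whereas CENPM moved from -0.80 to -0.44. The median was nearly as before, -0.55, and the SD of the 48 log2 fold changes was 0.240 in place of 0.369. KIF11 stood at -1.06 in this fit. The longest transcript need not be the expressed one, which bears on MAD2L1 and BUB3, whose annotated lengths were 5468 and 7828 bases.

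**Figure D3:**
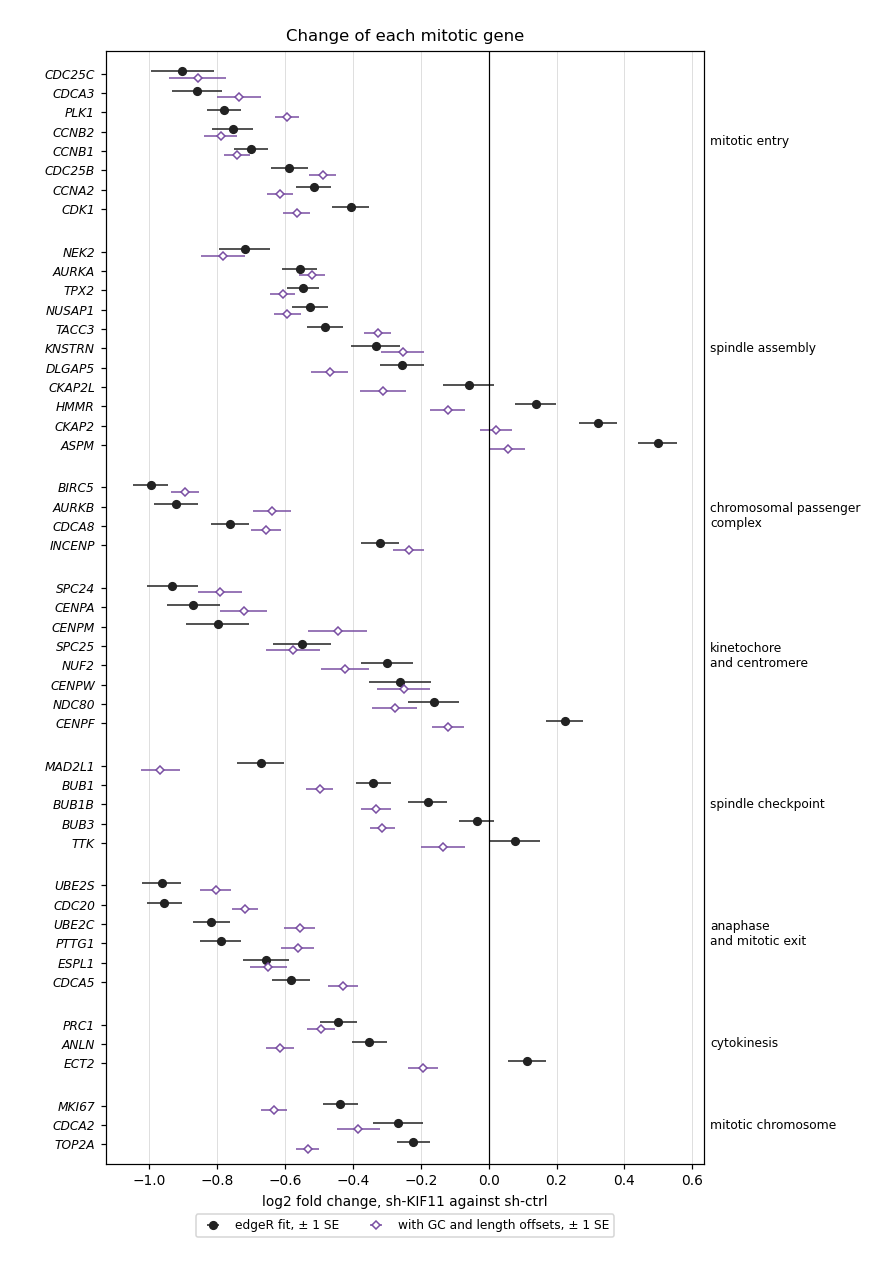
Log2 fold change of each mitotic gene, sh-KIF11 against sh-ctrl, with bars of 1 SE, from the edgeR fit (filled circles) and from the fit with GC and length offsets (open diamonds). HMMR, CKAP2, ASPM and CENPF lie right of 0 in the first and at or left of 0.06 in the second.

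Promoter windows from RefSeq (GRCh38.p14), from 250 bases before to 50 after a gene start, were searched for the CHR element (TTTGAA or TTCGAA, either strand) and for the CCAAT box (CCAAT, either strand) bound by NF-Y. Windows were matched for 40 of the 48 genes, those without being AURKA, BIRC5, BUB3, CDCA2, CENPM, TPX2, TTK and UBE2C. A CHR was found in 30 of the 40 (75.0%), against 19.5% of 27305 genes with a window and 15.6% of the 9754 tested genes with a window. In 27 of the 40 (67.5%) it began within 50 bases of the start, against 5.06% of those tested genes. A CCAAT box was found in 32 (80.0%), against 43.4%, and both stood in 1 window in 25 (62.5%), against 6.58%. The median log2 fold change was -0.42 for the 30 mitotic genes with a CHR and -0.71 for the 10 without, and 0.03 and -0.00 for all tested genes with and without it. For the CCAAT box it was -0.57 for the 32 with and -0.32 for the 8 without, and -0.02 and 0.02 for all tested genes. A match is a match of letters and no measure of binding.

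The windows of the 4 genes with a CHR and the lowest log2 fold changes are printed from 150 bases before to 10 after the start, beside those of ASPM and CKAP2, the genes that rose most. Capitals mark the CHR and CCAAT matches on either strand. CDC20 lies on the plus strand at chr1:43358831-43358990, CDC25C on the minus strand at chr5:138331795-138331954 (1 of its 4 windows), CENPA on the plus strand at chr2:26785906-26786065 and CDCA3 on the minus strand at chr12:6851277-6851436. ASPM lies on the minus strand at chr1:197146660-197146819 and CKAP2 on the plus strand at chr13:52455838-52455997. CDC25C, CENPA and CDCA3 have 1 CHR and 1 CCAAT match each in the stretch shown, and CDC20 has 1 CHR and 2 CCAAT matches.
CDC20: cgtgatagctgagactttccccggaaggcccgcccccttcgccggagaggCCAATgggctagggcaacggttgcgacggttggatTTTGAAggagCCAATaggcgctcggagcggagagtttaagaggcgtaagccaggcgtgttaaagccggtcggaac
CDC25C: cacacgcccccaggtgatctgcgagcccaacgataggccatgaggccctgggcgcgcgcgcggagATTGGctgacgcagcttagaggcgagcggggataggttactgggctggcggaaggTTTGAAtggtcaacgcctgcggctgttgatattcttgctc
CENPA: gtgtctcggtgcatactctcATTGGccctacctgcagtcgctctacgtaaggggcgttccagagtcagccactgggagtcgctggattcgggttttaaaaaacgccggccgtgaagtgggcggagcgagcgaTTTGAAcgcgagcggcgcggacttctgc
CDCA3: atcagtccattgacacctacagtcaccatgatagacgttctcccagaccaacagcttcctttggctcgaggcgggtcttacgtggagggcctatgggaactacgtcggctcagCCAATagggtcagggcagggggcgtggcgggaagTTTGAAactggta
ASPM: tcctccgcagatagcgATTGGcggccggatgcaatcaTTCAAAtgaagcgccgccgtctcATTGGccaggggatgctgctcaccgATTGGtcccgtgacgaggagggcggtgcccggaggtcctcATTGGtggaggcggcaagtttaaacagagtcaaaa
CKAP2: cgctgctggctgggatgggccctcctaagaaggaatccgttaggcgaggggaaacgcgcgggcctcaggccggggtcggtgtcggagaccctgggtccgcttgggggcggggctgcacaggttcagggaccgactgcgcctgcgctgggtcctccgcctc
The CHR of CENPA begins 18 bases before the start, that of CDC25C 30 bases, that of CDCA3 3 bases and that of CDC20 65 bases. ASPM has 4 CCAAT matches and a CHR that begins 113 bases before the start. In the stretch of CKAP2 neither motif was found. HMMR, which also rose in the first fit, has CHR matches 22 and 28 bases before its start, and CENPF has 1 that begins 40 bases after it.

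**Figure D4:**
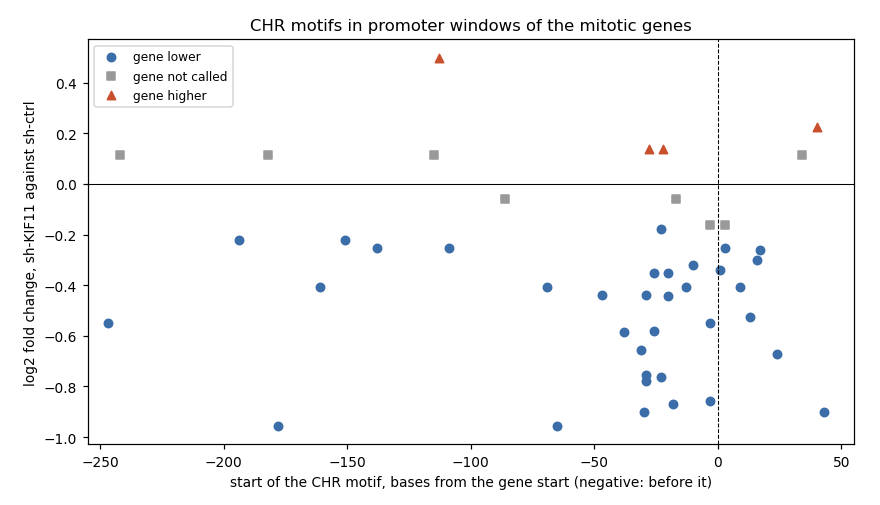
Start of each CHR match in bases from the gene start (negative is before it) against the log2 fold change of the gene, sh-KIF11 against sh-ctrl, for the 30 mitotic genes with a match; a gene with several matches has several points. Most matches lie within 50 bases of the start, over changes from -0.90 to 0.22.

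Other genes of the same machinery are given beside the 48, with no test of the difference between lists. Over 99 other mitosis genes tested, 46 were lower, 21 higher and 32 not called, with a median of -0.11, beside 34.7% and 34.4% of all genes. On library totals 27 were lower and 44 higher, beside 19.2% and 53.5% of all genes. With the GC and length offsets 59 were lower and 10 higher, beside 36.4% and 30.3% of all genes. Of 16 APC/C subunits and regulators 7 were lower and 3 higher, a balance that turned to 3 lower and 7 higher on library totals. With the offsets 10 were lower and 2 higher. ANAPC11, its catalytic RING subunit, fell from 51.9 ± 3.95 to 24.7 ± 1.68 CPM (SD, n = 3; log2 fold change -1.07), while ANAPC4, a scaffold subunit, rose by 0.53. Of 35 other kinetochore proteins 18 were lower and 4 higher, which became 10 and 12 on library totals and 25 and 1 with the offsets. PMF1, of the MIS12 complex, fell from 15.3 ± 0.482 to 7.75 ± 0.983 CPM, and CENPC, which links the centromere to that complex, rose by 0.51. Of 18 other regulators of entry and exit 9 were lower and 5 higher, which became 8 and 9 on library totals. With the GC and length offsets they were 11 and 1, beside 36.4% and 30.3% of all genes. They ran from CKS1B at -0.89 to CDC14A at 0.38.

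The augmin and spindle pole list had 6 lower and 5 higher among 17, which became 4 and 9 on library totals. Both pairs lay near the shares of all genes, 34.7% and 34.4%, and 19.2% and 53.5% on library totals. With the GC and length offsets this list had 6 lower and 2 higher. SPAG5 (astrin) fell from 139 ± 8.20 to 85.0 ± 4.08 CPM, and TACC2 rose from 67.6 ± 2.41 to 91.4 ± 2.07 CPM. Of 13 other cytokinesis proteins 6 were lower and 4 higher, which became 2 and 7 on library totals and 7 and 4 with the offsets. RACGAP1, the partner of ECT2 at the midzone, fell by 0.59 on the log2 scale. VPS4B, an ATPase of the final cut between daughter cells, rose by 0.64. DNA replication genes, which are used earlier in the cycle, were lower for 25 of 29, higher for 0 and not called for 4, with a median of -0.42, and on library totals 16 were lower and 3 higher. No replication gene was higher by DESeq2 either, and 0 were higher at an unadjusted p under 0.05 in edgeR. Among them CDT1, the licensing factor, fell from 100.4 to 58.7 CPM. The mitotic genes therefore stood at -0.52 beside -0.42 for replication genes, a difference of the medians that was not tested.

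Shared reads limit some values. Exons of another coding gene on the opposite strand overlap some of the 48, among them CCNA2, CDC25C, PLK1, CDCA3, CKAP2L and ANLN, the partner being EXOSC9 for CCNA2. The library kit keeps strand, but the strand setting of the counting is not given in the sources used here, so reads of such pairs may be mixed. Pseudogene copies by name are annotated for 11 of the 48, among them UBE2C with 4 and AURKA, NEK2 and UBE2S with 2 each, and reads could be split between these and their copies.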

How the data were processed

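PolyA RNA of 3 sh-ctrl and 3 sh-KIF11 HepG2 libraries was sequenced as paired-end reads, which the authors trimmed with Trimmomatic. The deposited table of raw counts per gene and the deposited FPKM table are unpooled, and per the labels the processing notes name bcl2fastq 1.8.4, HISAT2 2.1.0, Cufflinks 2.2.1, HTSeq 0.9.1 and DESeq and the build GRCh38, without saying which made which values. FPKM values were scaled by the authors to transcript length and library depth. Columns named shRNA were taken as the sh-KIF11 libraries, since the labels hold no other shRNA group.

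Counts were tested in R 4.3.3 with edgeR 4.0.16 (TMM, filterByExpr, glmQLFit, glmQLFTest, two-sided), with Benjamini-Hochberg adjustment over 12369 genes at 0.05. The common biological coefficient of variation was 4.87%, and a chi-square over genes, divided by its degrees of freedom, was 2.67 to 7.85 for pairs within a group and 83.3 to 102.2 between groups, so no libraries were merged. SE was taken as the log2 fold change over the square root of F. Alternatives were RLE, upper-quartile and library-total scaling, DESeq2 1.42.0, limma 3.58.1 on log2(FPKM + 1) and log2(FPKM + 0.1), other filters, a replicate block, each library left out and, added after seeing the data, loess offsets on GC content and length of the longest coding transcript (98.6% of tested genes matched). The fit was tested on simulated data. The members, roles and lists were chosen with earlier results of these data known. All 48 members are named, with full values for the lowest and highest of each role, those called higher and those not called, and of each other list the called genes with the lowest and highest change. Promoters are printed for up to 4 members with a CHR and the lowest changes and up to 2 called higher.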

Additional observations from a re-analysis of the deposited data

How the results depend on the processing

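Lower and higher calls of the 48 genes were 39 and 4 with RLE factors, DESeq2 and the replicate block, 37 and 5 with upper-quartile factors (28.8% and 40.5% of all genes), 40 and 3 without a filter (27.2% and 27.7%), 39 and 5 with at least 10 counts in every library (34.6% and 34.8%), and 38 to 40 and 3 to 5 with each library left out. Libraries with the same replicate number showed no visible shared effect (correlations of same-numbered deviations 0.0338, -0.0257 and 0.0020). This cannot tell whether the libraries were made in pairs, which the labels do not say. The replicate block called 8607 genes in place of 8548 and changed no call among the 48. Against a fold of 1.2, 30 of the 48 were lower and 1 higher, beside 20.2% and 21.3% of all genes.

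On library totals 8 of the 48 were higher and the median was -0.29. All-gene calls were 2373 lower and 6621 higher (19.2% and 53.5% of genes tested), so that lower calls were 26.4% of calls in place of 50.2%. There the lists gave 3 lower and 7 higher for the APC/C, 10 and 12 for other kinetochore proteins, 8 and 9 for other entry and exit regulators, 4 and 9 for augmin and the pole, 2 and 7 for other cytokinesis proteins, and 16 and 3 for replication. NDC80 was at 0.069, BUB1B at 0.051, TOP2A at 0.0096, CKAP2L at 0.17 and BUB3 at 0.20. Every one of the 48 moved by 0.231 on this scale, as the all-gene median did. With upper-quartile factors the median was -0.44, CKAP2L 0.020 and BUB3 0.043, and lower calls were 41.5% of calls.

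On log2(FPKM + 1) and log2(FPKM + 0.1), 7 and 7 of the 48 were higher, the medians were -0.32 and -0.35, and 2596 and 2597 genes were lower (31.5% and 31.4% of calls). On both scales the APC/C had 2 lower and 5 higher, other kinetochore proteins 10 and 10, augmin and the pole 8 higher, other cytokinesis proteins 2 lower and replication 1 higher. Of all genes tested 21% were lower and 45.6% higher on the first scale, and 21% and 45.8% on the second. CKAP2L was at 0.063 and 0.073 and BUB3 at 0.15 and 0.15. With GC and length offsets, without and with the replicate block, 0 and 0 of the 48 were higher, other kinetochore proteins had 1 and 1 higher, other entry and exit regulators 1 and 1, and augmin and the pole 2 and 2. Of all genes tested 30.3% and 29.8% were higher in these fits. Replication had 1 higher without the block. HMMR was at -0.12 in both, CENPF at -0.12 in both, TTK at -0.13 in both and ECT2 at -0.19 in both. With each library left out, CKAP2L ranged from -0.10 to 0.0043 (without sh-KIF11 replicate 3) and BUB3 from -0.067 to 0.0064 (without sh-ctrl replicate 3). At a smallest member count of 242, depth did not limit detection of any of the 48, and 3 libraries a group limit the precision of small changes such as those of HMMR and CENPW.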

Other observations

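The number of the 48 genes above their group mean differed between the libraries of a group. Single genes went both ways: in sh-ctrl replicate 3 PLK1 (313 CPM) and CDC20 (190 CPM) were at their group's lowest. CDK1 (151 CPM) and MAD2L1 (73.3 CPM) were at their group's highest there. In sh-ctrl, 15 of the 48 lay above their group mean in replicate 1, 25 in replicate 2 and 31 in replicate 3, with median deviations of -0.03, 0.00 and 0.04 on the log2 scale. In sh-KIF11 the counts were 24, 34 and 12 for replicates 1, 2 and 3, with median deviations of 0.00, 0.04 and -0.03. The median deviation of all tested genes, which TMM scaling keeps small by construction, was at most 0.0036 in size in these libraries. The geometric mean of the 48 genes was 90.2, 92.7 and 94.0 CPM in sh-ctrl and 67.1, 68.5 and 65.5 CPM in sh-KIF11, so the spread within a group was small beside the gap between groups. The geometric mean of the 29 replication genes was 91.2, 90.4 and 93.4 CPM in sh-ctrl and 70.7, 70.9 and 67.3 CPM in sh-KIF11, and sh-KIF11 replicate 3 was lowest for both lists.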
